A study of Mus musculus with 13 samples.

Results

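The dystrophin complex links the actin cytoskeleton of a muscle cell to the basement membrane. The 8 genes described here are Dmd, Utrn, Sgca, Sgcb, Sgcd, Dag1, Dtna and Sspn, taken by name from the 26264 genes in the tables of the series. All 8 were found and all 8 were tested. They were measured by RNA sequencing of polyadenylated RNA from mouse right ventricle, in 7 libraries of Dsg2 F536C knock-in mice and 6 libraries of wild-type mice. The gene Dsg2 makes desmoglein 2, an adhesion protein of the junctions that hold heart muscle cells together, and the knock-in serves as a model of arrhythmogenic cardiomyopathy. The labels name no treatment for these libraries and give no sex, age, strain, zygosity or batch. Whether every library is a different mouse is not stated, and p-values therefore measure only the spread between these libraries, which may be technical.

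Dystrophin, the product of Dmd, is a long rod-shaped protein that binds actin at one end and the membrane protein dystroglycan at the other. Dystroglycan, encoded by Dag1, carries sugar chains that bind laminin outside the cell. The sarcoglycans and sarcospan sit in the membrane beside it and stabilise the link, and dystrobrevins and syntrophins bind dystrophin inside the cell and carry signalling proteins. Utrophin is the paralog of dystrophin and can take its place in the complex. Loss of dystrophin or of a sarcoglycan causes muscular dystrophy with cardiomyopathy in humans.

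Totals lay between 14498336 and 29848597 reads per library. Knock-in 4, 5 and 6 stood apart from the others: fractional values made up 10.2% to 10.7% of their estimated counts, against 3.07% to 3.79% in the remaining 10 libraries, and their summed level of 10 epithelial markers was 2915 to 3988 CPM, against 14.4 to 36 CPM in knock-in 1, 2, 3 and 7 and 10.2 to 35.4 CPM in wild type. The log2 fold change of each of the 8 genes is therefore given with all 13 libraries and with the 10 libraries left without these 3. Some other results are given with all 13 only. CPM here is the read number per 1e6 reads of the library after scaling by TMM, a method that sets the bulk of genes equal between libraries. All 104 read numbers of the 8 genes were whole in every library. Dsg2 itself averaged 47.7 ± 10.3 CPM in knock-in and 101 ± 11.2 CPM in wild type (SD, n = 7 and 6), and its groups did not overlap.

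The start regions shown are 2 of Dmd, whose transcript lengths are described below, and a window of Utrn, the member higher in knock-in. A window each is also shown of Sgca and Sgcb, the members with the largest falls over all 13 libraries. Each runs from 250 bases before to 50 bases after an annotated start, in RefSeq coordinates of GRCm38.p6, an older build than the GRCm39 of the deposited tables. RefSeq windows were used for 7 of the 8 genes, and none for Dtna. Not every chromosome was searched, so this does not mean that RefSeq lacks a window for Dtna. Capitals mark matches, on either strand, to the E-box CANNTG, bound by myogenic and other basic helix-loop-helix factors, the GC box GGGCGG, the TATA box TATAAA, the N-box TTCCGG, the CArG box of serum response factor and the MEF2 site. Dmd has a start at the beginning of the gene for a full-length form and another near its end for short forms of the Dp71 type; further starts of the gene, which include separate ones for other full-length forms, are not shown. Windows are written 5′ to 3′ on the strand of the gene.
Dmd, full-length start, chrX:82948620-82948919, + strand: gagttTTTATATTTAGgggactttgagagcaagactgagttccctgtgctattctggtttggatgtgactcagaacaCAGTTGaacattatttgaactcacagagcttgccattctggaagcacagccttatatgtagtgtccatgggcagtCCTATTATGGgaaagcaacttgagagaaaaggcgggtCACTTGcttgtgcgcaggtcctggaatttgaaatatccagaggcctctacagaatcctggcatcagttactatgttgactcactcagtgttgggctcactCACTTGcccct
Dmd, short-form start, chrX:85048045-85048344, + strand: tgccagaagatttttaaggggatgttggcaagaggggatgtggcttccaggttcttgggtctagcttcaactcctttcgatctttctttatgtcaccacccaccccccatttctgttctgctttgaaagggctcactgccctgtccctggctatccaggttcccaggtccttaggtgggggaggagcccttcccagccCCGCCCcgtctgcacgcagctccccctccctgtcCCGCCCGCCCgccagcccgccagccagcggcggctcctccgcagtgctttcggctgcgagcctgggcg
Utrn, chr10:12861686-12861985, - strand: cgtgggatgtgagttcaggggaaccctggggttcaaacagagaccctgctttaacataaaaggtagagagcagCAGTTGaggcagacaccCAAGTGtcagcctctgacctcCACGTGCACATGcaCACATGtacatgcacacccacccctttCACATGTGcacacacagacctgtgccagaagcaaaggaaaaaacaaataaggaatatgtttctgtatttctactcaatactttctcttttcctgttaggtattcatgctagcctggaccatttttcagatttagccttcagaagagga
Sgca, chr11:94976278-94976577, - strand: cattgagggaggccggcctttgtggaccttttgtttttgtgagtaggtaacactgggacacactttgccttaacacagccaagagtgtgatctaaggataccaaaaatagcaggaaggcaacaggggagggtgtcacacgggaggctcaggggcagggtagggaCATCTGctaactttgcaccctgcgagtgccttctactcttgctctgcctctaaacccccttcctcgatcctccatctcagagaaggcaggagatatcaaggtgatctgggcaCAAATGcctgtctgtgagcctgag
Sgcb, chr5:73647688-73647987, - strand: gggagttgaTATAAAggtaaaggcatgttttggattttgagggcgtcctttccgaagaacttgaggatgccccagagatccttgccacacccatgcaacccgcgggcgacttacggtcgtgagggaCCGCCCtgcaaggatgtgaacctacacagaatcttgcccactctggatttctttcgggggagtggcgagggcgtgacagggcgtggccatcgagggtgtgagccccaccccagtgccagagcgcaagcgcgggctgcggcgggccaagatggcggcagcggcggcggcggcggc

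The full-length Dmd window holds 3 E-boxes, 1 TATA box at bases -245 to -240 from the start and 1 MEF2 site that overlaps it. It also holds 1 CArG box at bases -98 to -89. The short-form window of Dmd holds 3 matches to the GC box, a pair of which share bases, and no E-box. The Utrn window holds 7 E-boxes, the Sgca window 2, and the Sgcb window none but 1 GC box and 1 TATA box, at bases -241 to -236. Both TATA matches thus lie at the upstream end of their windows, far from the start. No N-box was found in these windows, which says nothing of other starts of the genes. An older annotation holds 8 protein-coding Utrn transcripts of 660 to 12382 bases, and which of them begin at the start shown was not tested. Over all 32851 mouse windows of this length, 72.3% hold an E-box, 35.7% a GC box, 14.9% an N-box, 13.6% a TATA box, 3.19% the MEF2 site and 1.63% the CArG box. A match describes these letters and is no evidence of binding.

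With all 13 libraries, 5 of the 8 genes were lower in knock-in, 1 was higher and 2 did not pass the test. Sgca, Sgcb, Sgcd, Dtna and Sspn were lower, Utrn was higher, and Dmd and Dag1 were not called. In the same fit 44.6% of 14588 tested genes passed, 23.6% higher and 21.0% lower, so a call in itself is common in these data. The median log2 fold change of the 8 genes was -0.50, beside 0.08 for all tested genes. Without knock-in 4, 5 and 6, Sgca, Sgcb and Sspn stayed lower and Utrn stayed higher, with a median of -0.26 beside 0.02 for all genes; of the 14518 genes tested there 43.7% passed, 22.3% higher and 21.3% lower. Calls are from edgeR's quasi-likelihood test with Benjamini-Hochberg adjustment over all tested genes, at an adjusted p under 0.05. Scaling by library totals in place of TMM shifted the median of all genes upward by 0.25 with either set, and then only Utrn, Sgca and Sgcb of the 8 passed with 13 libraries and only Utrn and Sgca with 10. Under library totals 6110 of 14588 tested genes were higher and 1661 lower with 13 libraries, and 6049 and 1528 of 14518 with 10. That change of scaling moves all genes nearly alike, so it leaves each gene's distance from the median of all genes almost as it was: with 13 libraries and with 10, Utrn lay above that median and the other 7 genes below it.

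**Figure D1:**
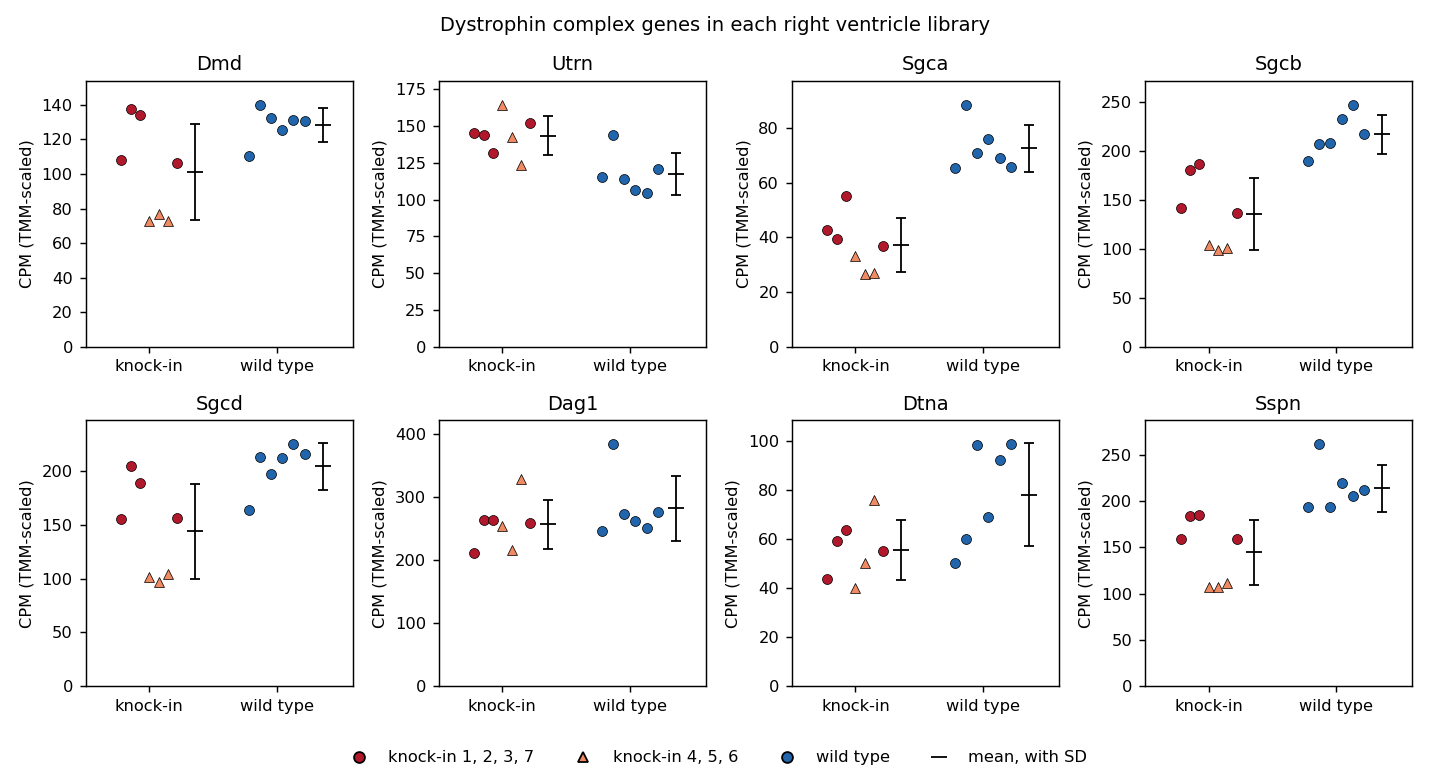
TMM-scaled CPM of each of the 8 genes (linear axes from 0) in every knock-in and wild-type library, with group means and SD beside the points. Sgca, Sgcb and Sspn have no knock-in library as high as the lowest wild-type one, and the triangles of knock-in 4, 5 and 6 are the lowest knock-in points for Dmd, Sgca, Sgcb, Sgcd and Sspn.

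Sgca, which encodes alpha-sarcoglycan, the subunit made almost only in skeletal and heart muscle, had the largest fold change of the 8. Its lowest, median and highest levels were 26.6, 36.6 and 55.0 CPM in knock-in, against 65.3, 70.0 and 88.2 CPM in wild type. Every knock-in library was below every wild-type library, with or without knock-in 4, 5 and 6. On the log2 scale knock-in differed from wild type by -0.97 ± 0.16 (SE; adjusted p = 0.000333 by edgeR's quasi-likelihood test), a level 0.512 times that of wild type. Without knock-in 4, 5 and 6 it was -0.74 ± 0.12 (adjusted p = 0.000311). Alone among the 8 genes, Sgca kept its call under every alternative tried.

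Sgcb encodes beta-sarcoglycan, which forms the core of the subcomplex together with delta-sarcoglycan. Its lowest, median and highest levels were 99.0, 137 and 187 CPM in knock-in, against 190, 212 and 247 CPM in wild type. The groups again did not overlap, although the highest knock-in library was close to the lowest wild-type one. Its log2 fold change was -0.68 ± 0.16 with 13 libraries (adjusted p = 0.00427) and -0.43 ± 0.11 with 10 (adjusted p = 0.00815), by the quasi-likelihood test. With library totals and 10 libraries it was -0.18 (adjusted p = 0.127).

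Sgcd, which encodes delta-sarcoglycan, ranged from 97.2 to 205 CPM in knock-in with a median of 156, and from 164 to 225 CPM in wild type with a median of 213. Knock-in 4, 5 and 6 lay between 97.2 and 104 CPM, far below all others, while the other 4 knock-in libraries, at 156 to 205 CPM, overlapped wild type. Over all 13 libraries the log2 fold change was -0.50 ± 0.18 (adjusted p = 0.0345, quasi-likelihood test) and fell short of a call without those libraries, at -0.21 ± 0.11 (adjusted p = 0.143; 95% interval -0.43 to 0.01). Leaving out any 1 of wild type 2, 4, 5 and 6 or knock-in 4, 5 and 6 was enough to lose the call, with adjusted p of 0.0538 to 0.0661.

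Sspn encodes sarcospan, a membrane protein with 4 passes through the membrane that associates with the sarcoglycans. Its lowest, median and highest levels were 107, 158 and 185 CPM in knock-in, against 193, 208 and 261 CPM in wild type. The groups did not overlap in either set of libraries. The log2 fold change was -0.56 ± 0.15 (adjusted p = 0.00945) with 13 libraries and -0.32 ± 0.10 (adjusted p = 0.0232) with 10, by the quasi-likelihood test. With 10 libraries the call was lost without knock-in 1 (adjusted p = 0.076) or knock-in 7 (adjusted p = 0.0673). Under library totals the value was -0.32 with 13 libraries (adjusted p = 0.095) and -0.08 with 10 (adjusted p = 0.574). In an older annotation Sspn shares exon bases with a gene on the opposite strand, Sspnos, whose symbol was not in these tables. Whether reads were counted by strand is not given in the sources used here.

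Non-overlap of the groups is itself not rare: it held for 3 of the 8 genes in each set, Sgca, Sgcb and Sspn, against 19.1% of tested genes with 13 libraries and 29.8% with 10. Ratios between the lower genes of the membrane subcomplex within a library do not depend on the scaling between libraries. The ratio of Sgcd to Sgcb in TPM (the authors' level per transcript length) was 0.384 to 0.452 in knock-in and 0.334 to 0.400 in wild type. The ratio of Sgca to Sgcb was 0.496 to 0.689 in knock-in and 0.615 to 0.941 in wild type. Both ranges overlapped, as did that of Sspn to Sgcb, at 0.807 to 0.910 in knock-in and 0.664 to 1.02 in wild type. The ratio of Sgca to Dmd did not overlap, at 1.36 to 1.78 in knock-in and 1.91 to 2.51 in wild type in TPM, nor as read numbers, at 0.286 to 0.454 in knock-in and 0.502 to 0.631 in wild type. The ratio of Sgcb to Dmd also did not overlap as read numbers, at 1.29 to 1.43 in knock-in and 1.48 to 1.88 in wild type. In TPM it did overlap, at 2.34 to 2.84 in knock-in and 2.67 to 3.17 in wild type. The ratios of Sgcd, Sspn, Dag1 and Dtna to Dmd overlapped on both measures. These ratios are descriptions and carry no test, and how often ratios of other genes to Dmd do not overlap was not counted.

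Dmd had 72.8, 106 and 138 CPM as its lowest, median and highest levels in knock-in, against 110, 131 and 140 CPM in wild type. Knock-in 4, 5 and 6 lay at 72.8 to 77.0 CPM, below every other library, and the remaining 4 knock-in libraries ran from 106 to 138 CPM. Of those 4, knock-in 1 and 7, at 108 and 106 CPM, were also below the lowest wild-type library, at 110 CPM. Knock-in 2 and 3, at 138 and 134 CPM, lay inside the wild-type range. For Dmd the log2 fold change was -0.34 ± 0.16 (adjusted p = 0.092; 95% interval -0.66 to -0.03) and without knock-in 4, 5 and 6 it was -0.08 ± 0.10 (adjusted p = 0.535; 95% interval -0.28 to 0.11), by the quasi-likelihood test. The gene passed when knock-in 2 (adjusted p = 0.0319) or knock-in 3 (adjusted p = 0.0396) was left out of the 13, at -0.43 and -0.42.

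The deposited tables also give a length for each gene, which in this format is the mean length of its transcripts weighted by their estimated abundance, and for Dmd it was longer in knock-in. In bases it was 7117, 7504, 6917, 6540, 6592, 7158 and 7963 in knock-in 1 to 7, against 6066, 6518, 6625, 6214, 6023 and 6254 in wild type 1 to 6. Only knock-in 4 and 5 fell inside the wild-type range, and without knock-in 4, 5 and 6 the groups did not overlap. The means were 7113 ± 503 bases in knock-in and 6283 ± 242 bases in wild type (SD, n = 7 and 6). The log2 difference was 0.18 ± 0.04 with 13 libraries (adjusted p = 0.0739) and 0.23 ± 0.04 with 10 (adjusted p = 0.0637) by limma, so neither passed the threshold of 0.05. Of the genes whose length varied, 1.78% of 6060 passed with 13 libraries and 0.535% of 5977 with 10, and lengths did not overlap for 3.15% with 10. Protein-coding Dmd transcripts in an older GENCODE annotation run to 1858, 4438 and 14910 bases, so a larger weighted length goes with a larger share of long transcripts among those estimated. The lengths are estimates from short reads, and which transcripts carried the difference was not tested.

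Because a longer transcript gives more reads, the read number and the level per length of Dmd need not move alike. Per 1000 bases of effective length (the length corrected for fragment size), Dmd had 15 ± 3.52 CPM in knock-in, 17.4 ± 2.57 CPM in knock-in 1, 2, 3 and 7, and 21.7 ± 1.51 CPM in wild type (SD, n = 7, 4 and 6). With effective length offsets in the quasi-likelihood fit the log2 fold change was -0.54 (adjusted p = 0.00757) with 13 libraries and -0.32 (adjusted p = 0.0191) with 10, and Dmd was called lower in both. Library totals moved Dmd the other way, to -0.10 (adjusted p = 0.612) with 13 and 0.16 (adjusted p = 0.146) with 10. The authors' TPM, also a level per length, averaged 21.1 ± 3.95 in knock-in, 23.8 ± 2.60 in knock-in 1, 2, 3 and 7, and 22.8 ± 2.71 in wild type. Limma on log2(TPM + 1) gave -0.12 (adjusted p = 0.406) with 13 libraries, so Dmd was not called on every per-length measure. The scales differ in where the bulk of genes lies. With 13 libraries the median of all tested genes was 0.08 with length offsets, 0.33 with library totals and 0.38 on log2(TPM + 1). With 10 it was 0.02 with length offsets and 0.26 with library totals. Dmd lay below the median of all genes in each of these fits.

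**Figure D2:**
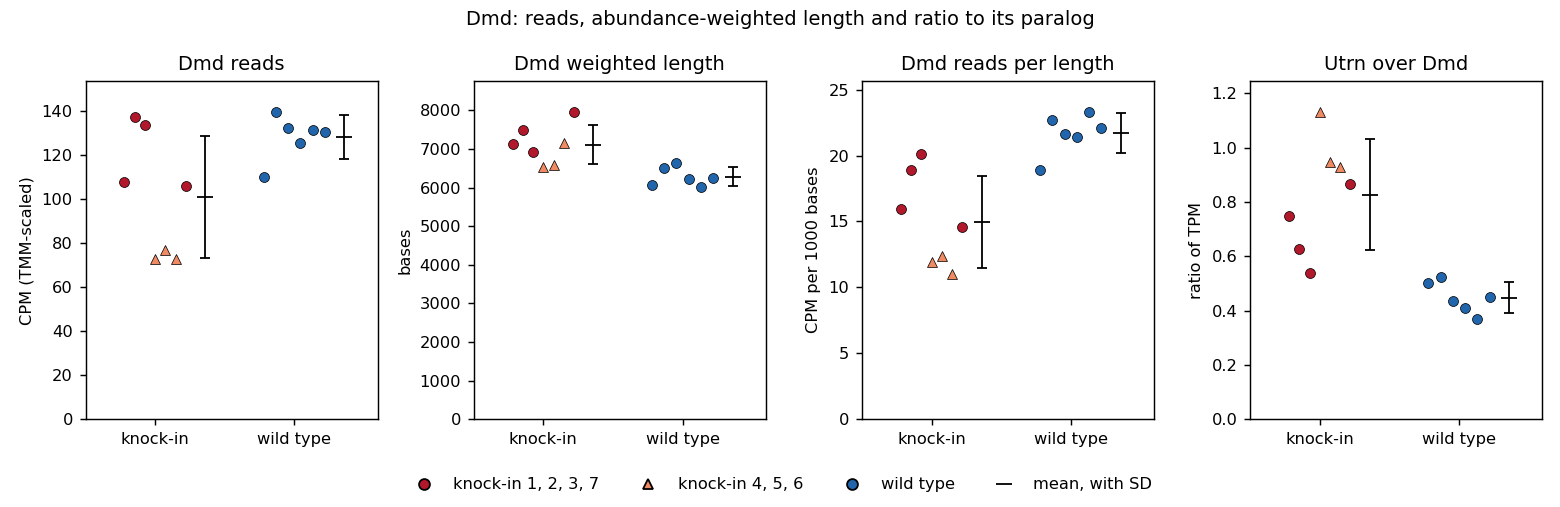
From left to right, for every library, Dmd CPM, its abundance-weighted length in bases, its CPM per 1000 bases of effective length and the ratio of Utrn to Dmd in TPM, all on linear axes from 0, with group means and SD. Lengths average 7113 bases in knock-in and 6283 bases in wild type, and all 7 knock-in TPM ratios lie above all 6 wild-type ones, whereas the ratios of read numbers overlap (0.980 to 2.25 in knock-in, 0.795 to 1.04 in wild type).

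Utrn was the member with higher levels in knock-in. Its lowest, median and highest levels were 124, 144 and 164 CPM in knock-in, against 104, 114 and 144 CPM in wild type. The groups overlapped through wild type 2, at 144 CPM, whereas the other 5 wild-type libraries were at 121 CPM or less. The log2 fold change was 0.29 ± 0.10 in both sets (adjusted p = 0.0292 with 13 libraries and 0.0269 with 10, quasi-likelihood test), a level 1.22 times that of wild type. With 13 libraries the call was lost without knock-in 4 (0.25, adjusted p = 0.0543) or without wild type 1 (0.28, adjusted p = 0.0518). With 10 it was lost without any 1 of wild type 3, 4 and 5 or knock-in 1, 2 and 7, with adjusted p of 0.0541 to 0.0811.

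The ratio of Utrn to Dmd is likewise free of the scaling between libraries. In TPM it was 0.749, 0.626, 0.538, 1.13, 0.946, 0.927 and 0.866 in knock-in 1 to 7, against 0.502, 0.524, 0.435, 0.410, 0.370 and 0.449 in wild type 1 to 6. No knock-in TPM ratio was as low as the highest wild-type ratio, and knock-in 3 was the nearest to it. The means were 0.826 ± 0.204 in knock-in, 0.695 ± 0.144 in knock-in 1, 2, 3 and 7, and 0.448 ± 0.0572 in wild type (SD, n = 7, 4 and 6). The TPM ratio takes in the Dmd length described above. As a plain ratio of read numbers, Utrn over Dmd was 0.980 to 2.25 in knock-in and 0.795 to 1.04 in wild type, and these ranges overlapped, since knock-in 3, at 0.980, was below wild type 1 and 2, at 1.04 and 1.03. Both ratios are given with no test, and how often ratios of other genes to Dmd do not overlap was not counted.

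Dag1, which encodes both subunits of dystroglycan, had 211, 259 and 328 CPM as its lowest, median and highest levels in knock-in, against 247, 268 and 383 CPM in wild type. The groups overlapped widely, and the wild-type maximum was a single library, wild type 2, with the next at 276 CPM. The log2 fold change was -0.14 ± 0.13 (adjusted p = 0.405; 95% interval -0.39 to 0.12) and -0.18 ± 0.13 without knock-in 4, 5 and 6 (adjusted p = 0.285), by the quasi-likelihood test. The sign turned to 0.01 (adjusted p = 0.964) when wild type 2 was left out, and to 0.10 (adjusted p = 0.535) under library totals.

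Dtna encodes alpha-dystrobrevin, which binds dystrophin and the syntrophins at the inner face of the membrane. It had 40.1, 54.9 and 75.7 CPM as its lowest, median and highest levels in knock-in, against 50.3, 80.6 and 98.4 CPM in wild type. The groups overlapped, since wild type 1, 2 and 4, at 50.3, 59.9 and 68.9 CPM, lay within the knock-in range. The log2 fold change was -0.50 ± 0.18 with 13 libraries (adjusted p = 0.0407) and -0.50 ± 0.19 with 10 (adjusted p = 0.0506), by the quasi-likelihood test. With 13 libraries the call was lost without any 1 of wild type 3, 4, 5 and 6 or knock-in 1, 4, 5 and 7, with adjusted p of 0.0574 to 0.125. Its weighted length averaged 2211 ± 180 bases in knock-in and 2047 ± 98.8 bases in wild type (SD, n = 7 and 6), a log2 difference of 0.11 ± 0.05 (adjusted p = 0.337 by limma). Knock-in 4, 5 and 6 averaged 2373 ± 149 bases and knock-in 1, 2, 3 and 7 averaged 2089 ± 65.0 bases (SD, n = 3 and 4). With 10 libraries the log2 difference was 0.03 ± 0.04 (adjusted p = 0.836 by limma). Dtna also shares exon bases with a gene on the opposite strand, Gm47898, in the older annotation.

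**Figure D3:**
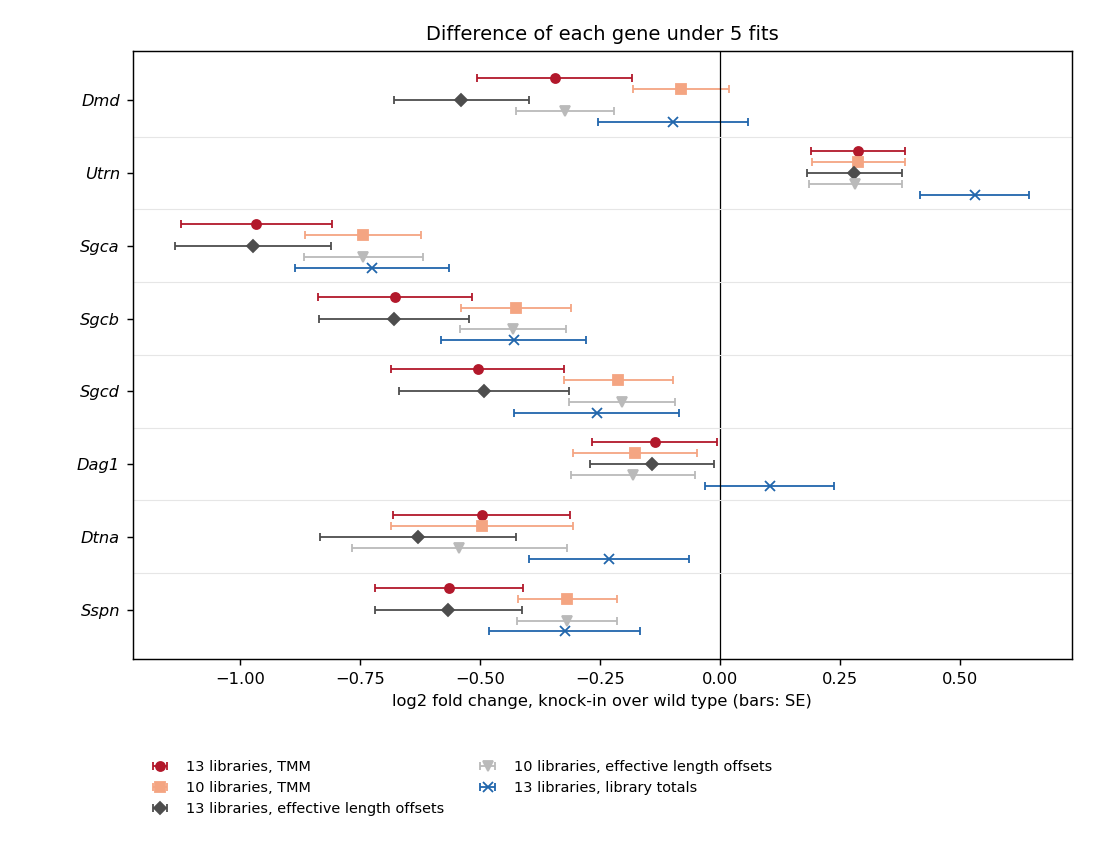
Log2 fold change of each gene, knock-in over wild type, with SE as bars, under TMM and effective length offsets with 13 and 10 libraries and under library totals with 13. Sgca is farthest below 0 and Utrn above 0 under all 5, and Dmd moves between -0.54 and -0.08.

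Levels per length placed the genes in an order that was similar in both groups. By mean TPM the order in knock-in was Dag1 at 69.0 ± 12.3, Sgcb at 55.8 ± 11.9, Sspn at 47.9 ± 9.65, Dtna at 39.3 ± 9.34, Sgca at 33.6 ± 7.72, Sgcd at 23.3 ± 5.81, Dmd at 21.1 ± 3.95 and Utrn at 16.7 ± 1.69 (SD, n = 7). In wild type it was Sgcb at 66.4 ± 6.65, Dag1 at 56.8 ± 16.5, Sspn at 53.3 ± 11.9, Sgca at 49.6 ± 11.1, Dtna at 43.8 ± 10.4, Sgcd at 24.4 ± 3.37, Dmd at 22.8 ± 2.71 and Utrn at 10.3 ± 2.30 (SD, n = 6). The libraries' ranges of each gene and the next in order overlapped in both groups, except for Dmd and Utrn in wild type. Sgcb was above Sspn in 7 of 7 knock-in libraries, and Dmd was above Utrn in 6 of 7 knock-in and 6 of 6 wild-type libraries. The median difference of all genes was 0.38 on the log2(TPM + 1) scale, against 0.08 in the read-based fit, and on that scale only Utrn (0.67, adjusted p = 0.000644 by limma) and Sgca (-0.55, adjusted p = 0.00881) of the 8 passed. The Sgcd transcript used in these tables is 9126 bases long, against at most 2450 bases in the older annotation, so its place in this order depends on the annotation.

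The genes whose profiles over the 13 libraries were closest to that of Dmd, by root mean square difference of centred log2 CPM among 13890 genes, were Aak1 (0.0713), Taf1a (0.0858), Pdk1 (0.0903), Tor1aip2 (0.0959) and Tom1l2 (0.0963). Among the other members Sgcd (0.116) ranked 51 and Sspn (0.140) ranked 135 in closeness to Dmd, while Utrn (0.459) ranked 6841. The genes closest to Utrn were Mia3 (0.0655), Akap10 (0.0806), Nfkb1 (0.0829), Tent4a (0.0937) and Sec24d (0.0959). The closest member to Utrn was Dag1 (0.30), at rank 3277.

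Of 10 other genes of the complex 9 were tested. With 13 libraries 4 were higher, 1 was lower and 4 did not pass, with a median log2 fold change of 0.57. In that fit 23.6% of all tested genes were higher and 21.0% lower. Sgce, encoding epsilon-sarcoglycan, a relative of alpha-sarcoglycan made in many tissues, averaged 45.9 CPM in knock-in and 30.9 CPM in wild type, at a log2 fold change of 0.57 ± 0.13 (adjusted p = 0.00389) and 0.49 ± 0.08 with 10 libraries (adjusted p = 0.000379). Among the sarcoglycans, Sgca and Sgcb fell and Sgce rose in both sets, all by edgeR's quasi-likelihood test. Of the syntrophins, adaptors that bind dystrophin and utrophin, Sntb2 rose by 0.49 ± 0.17 (adjusted p = 0.0282) and by 0.72 ± 0.12 with 10 libraries (adjusted p = 0.000432). Sntg2 rose by 1.66 ± 0.37 (adjusted p = 0.00314) from a low level, at 2.13 CPM in knock-in and 0.674 CPM in wild type. Dtnb, encoding beta-dystrobrevin, was called at 1.62 ± 0.49 (adjusted p = 0.0163) with 13 libraries and was at 0.28 ± 0.21 (adjusted p = 0.291) without knock-in 4, 5 and 6.

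Of 18 enzymes that build the sugar chains of dystroglycan 17 were tested. With 13 libraries 2 were higher, 8 lower and 7 not called, and 1 was higher and 7 lower with 10. Shares over all tested genes were 23.6% higher and 21.0% lower with 13 libraries, and 22.3% and 21.3% with 10. Dolk, a kinase that makes the lipid carrier of sugars, had a log2 fold change of -0.34 ± 0.10 (adjusted p = 0.0131), and Dpm2, a subunit of the enzyme that makes the mannose donor, had 0.30 ± 0.09 (adjusted p = 0.0192). Both were called in the same direction by the quasi-likelihood test with 10 libraries. The counts depended on scaling: with library totals 2 were higher and 1 lower with 13 libraries, and 3 were higher and none lower with 10. That scaling called 6110 of all 14588 tested genes higher and 1661 lower with 13, and 6049 and 1528 of 14518 with 10. The list's median log2 fold change lay below that of all tested genes under both scalings. With 13 libraries it was -0.27 beside 0.08 with TMM and -0.03 beside 0.33 with library totals. With 10 it was -0.20 beside 0.02 and 0.05 beside 0.26.

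Of 10 extracellular ligands of dystroglycan, 2 were lower and 8 not called with 13 libraries. That is close to the share of all tested genes called lower, 21.0%, while 23.6% of all tested genes were higher. Egflam, encoding pikachurin, averaged 9.74 CPM in knock-in and 24.2 CPM in wild type, with a log2 fold change of -1.32 ± 0.16 (adjusted p = 4.8e-05 by the quasi-likelihood test). Lama5, a laminin alpha chain, had -0.73 ± 0.11 (adjusted p = 0.000203), and both were also called lower with library totals. Lama2, the alpha chain of the main muscle laminin, averaged 93.5 CPM in knock-in and 103 CPM in wild type, and it did not pass (-0.15 ± 0.15, adjusted p = 0.433). With 10 libraries 1 ligand was higher and 3 lower, beside 22.3% and 21.3% of all tested genes. With library totals 6 were higher and 2 lower in that set, where 6049 of all 14518 tested genes were higher and 1528 lower.

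Of 16 partners at the membrane and the costameres, the sites where the complex meets the sarcomere's Z disc, 15 were tested. In this list 1 was higher and 6 lower with 13 libraries, and 2 were higher and 5 lower with 10. Of all tested genes 23.6% were higher and 21.0% lower with 13 libraries, and 22.3% and 21.3% with 10. Cav3, encoding the caveolin of muscle, averaged 39.4 CPM in knock-in and 78.7 CPM in wild type, at -1.0 ± 0.16 (adjusted p = 0.000333). Itga7, the integrin alpha chain that binds laminin in muscle, averaged 65.0 CPM in knock-in and 124 CPM in wild type, at -0.93 ± 0.15 (adjusted p = 0.000254). Mlip, a lamin-interacting protein of muscle, had -0.97 ± 0.18 (adjusted p = 0.000823), and Ank2, encoding an ankyrin that helps place dystrophin, had -0.83 ± 0.15 (adjusted p = 0.000877). Cavin4, a caveolar protein of muscle, had -0.61 ± 0.16 (adjusted p = 0.00713), and all 5 were called lower with 10 libraries too, by the quasi-likelihood test. Plec, the cytolinker plectin, was the one called higher with 13 libraries, at 0.63 ± 0.19 (adjusted p = 0.0157); it and Lama2 were named after their values were seen. The balance of directions in this list depended on scaling, as it did for all genes. Library totals gave 2 higher and 5 lower with 13 libraries, beside 6110 and 1661 of all 14588 tested genes. With 10 they gave 5 higher and 4 lower, beside 6049 and 1528 of 14518, and Cavin4 was not called there. Limma on log2(TPM + 1) gave 6 higher and 4 lower, beside 7708 and 1103 of all 14588 tested genes.

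**Figure D4:**
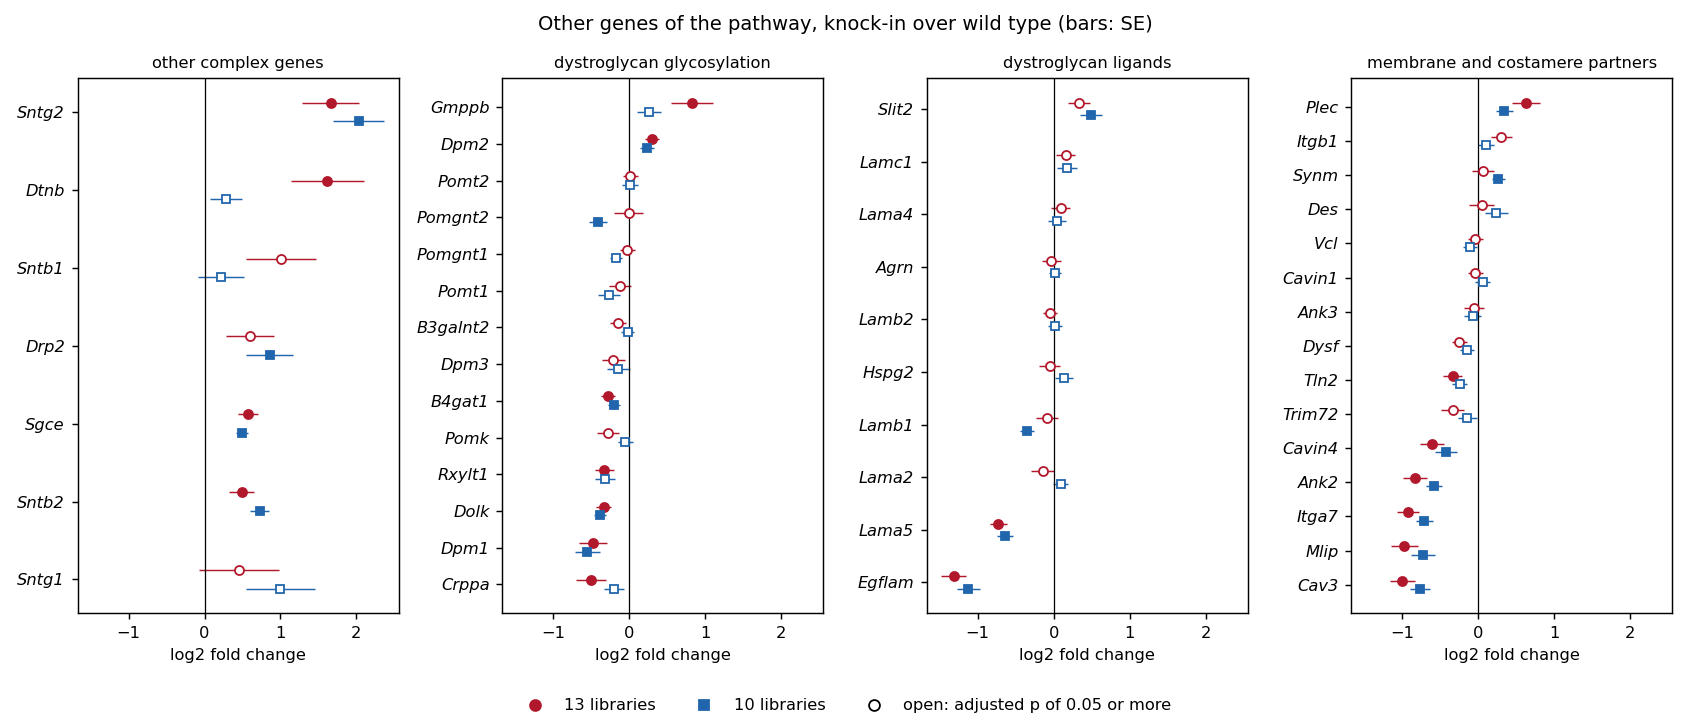
Log2 fold change, knock-in over wild type, with SE as bars, of tested genes of the 4 related lists, with 13 libraries (circles) and 10 libraries (squares); filled marks have an adjusted p under 0.05, and some tested genes are not shown. Sntg2 lies at 1.66 and Sgce at 0.57 among the other complex genes with 13 libraries, and Itga7, Cav3, Mlip, Ank2 and Cavin4 lie below 0 in both sets.

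Some markers of cell types differed between the same groups. Beside the counts below, 23.6% of all tested genes were higher and 21.0% lower with 13 libraries, and 22.3% and 21.3% with 10. Of 16 cardiomyocyte markers 14 were lower and none higher with 13 libraries and 12 were lower with 10, with median log2 fold changes of -0.91 and -0.71. Their summed level was 40723 to 79616 CPM in knock-in, 57347 to 79616 CPM in knock-in 1, 2, 3 and 7, and 92300 to 134650 CPM in wild type. None of the 16 was at 0 in any library. Fibroblast markers summed to 7080 to 11304 CPM in knock-in and 4883 to 6840 CPM in wild type, with 5 of 12 higher and 1 lower with 13 libraries and 9 higher and 1 lower with 10. Macrophage markers summed to 981 to 2341 CPM in knock-in and 760 to 1130 CPM in wild type, with 9 of 12 higher with 13 libraries and 12 of 12 with 10. With library totals the cardiomyocyte list had 11 lower and none higher with 13 libraries and 10 lower and 2 higher with 10, the fibroblast list 9 higher and 1 lower with 13 and 11 higher and 1 lower with 10, and the macrophage list 12 higher with both. In those fits 6110 of 14588 tested genes were higher and 1661 lower with 13 libraries, and 6049 and 1528 of 14518 with 10. In a whole ventricle fewer cells of a type and less RNA per cell cannot be told apart, and the part of cell composition in the results above was not tested.

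The remaining lists moved less evenly, and the counts of some of them depended on scaling. The shares over all tested genes given above apply here too: 23.6% higher and 21.0% lower with 13 libraries, and 22.3% and 21.3% with 10. Counts of a few markers are not far from these shares and are not read as results about the cell types. Of 12 endothelial markers none passed with 13 libraries and 4 were higher with 10, of 12 smooth muscle and pericyte markers 5 were higher and 2 lower with 13, and of 10 Schwann and neuronal markers 3 were higher and 1 lower. Library totals gave 3 endothelial markers higher with 13 libraries and 8 with 10, and 8 smooth muscle and pericyte markers higher and 1 lower with 13 and 9 higher and 1 lower with 10. They also gave 3 Schwann and neuronal markers higher and none lower with either set. Library totals called 6110 of all 14588 tested genes higher with 13 libraries and 6049 of 14518 with 10. Of 9 tested adipocyte markers none passed with either set. Of 6 tested skeletal muscle markers 2 were higher and 3 lower, 6 others were too low to test, and Myog was at 0 in every library. Of 5 tested epithelial markers all were higher with 13 libraries and none was called with 10 (1 with library totals), which are the libraries without knock-in 4, 5 and 6. Dmd, Sgca, Sgcb, Sgcd and Sspn were lowest in those 3 libraries, where the cardiomyocyte sum, at 40723 to 46842 CPM, was also lowest; whether the epithelial signal bears on these 5 genes was not tested.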

How the data were processed

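Stranded libraries were made from polyadenylated RNA of right ventricles, per the labels' protocols. DRAGEN and the build GRCm39 (mm39) are named in the submitters' processing notes; which annotation was counted, and whether by strand, is not given in the sources used here. Per the file headers, the authors deposited for each library estimated counts per gene, TPM, and the length and effective length of each gene in bases. Groups and replicate numbers come from the titles.

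Estimated counts were rounded, genes were kept by edgeR's filterByExpr (edgeR 4.0.16, R 4.3.3), and the knock-in effect was tested after TMM scaling by the robust quasi-likelihood test, without covariates, with p-values adjusted by Benjamini-Hochberg over every tested gene. SE is the size of the log2 fold change over the square root of F, and 95% intervals are normal. Log2 lengths were tested with limma 3.58.1 over genes whose length varied. Read numbers within 1e-09 of a whole number counted as whole. Libraries whose share of other values was over 2 times the median share were set apart, which held for knock-in 4, 5 and 6. The common dispersion of the 13 libraries was 0.0974 and that of the 10 was 0.0276. Scripts were tested on simulated counts.

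The 8 members, the 4 related gene lists, the 9 cell type lists and the tests were chosen with earlier results of these data known. Up to 5 called genes with the smallest p of each related list were named, and cell type lists are given by counts and sums; some genes that this rule names are counted but not reported here by name. The profile comparison used genes averaging at least 1 CPM. Promoters came from RefSeq (GRCm38.p6), and transcript lengths and opposite-strand overlaps of at least 50 bases from GENCODE on GRCm38. Alternatives were other scalings, DESeq2 (1.42.0), limma-voom, log2(TPM + 1) and log2(TPM + 0.1), other filters, effective length offsets, a replicate block, an indicator for knock-in 4, 5 and 6, a stricter threshold and each library left out. Length offsets and the block with 10 libraries were added after seeing the data. Same-numbered libraries did not deviate together.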

Additional observations from a re-analysis of the deposited data

Results flagged for a closer look

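Of 62 sets of values, each the knock-in or the wild-type libraries for 1 gene, 6 held a library far from the rest of its group; chance gives about 1 in 20. Dag1 was at 383 CPM in wild type 2, where the nearest wild-type library was at 276 CPM. Sgce was at 68.9 CPM in knock-in 5, with the nearest knock-in library at 47.5 CPM. Dolk was at 23.3 CPM in knock-in 4, with the nearest at 19.3 CPM. Ank2 was at 119 CPM in wild type 1, with the nearest at 133 CPM, and Cavin4 was at 76.7 CPM in the same library, with the nearest at 114 CPM. The weighted length of Sspn was 4425 bases in knock-in 4, 5 bases below the nearest knock-in library at 4430.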

How the results depend on the processing

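Over 312 alternative results of single members, 228 kept the direction and the call, 73 lost the call, 4 gained it and 7 changed sign. These are refits, together with the main fit read at an adjusted p under 0.01. With 13 libraries, leaving out 1 library gave 5490 to 6830 called genes, 2957 to 3653 higher and 2533 to 3177 lower, and 3 to 7 called members, 0 to 1 higher and 3 to 6 lower. With 10 libraries it gave 5178 to 6739 genes and 2 to 6 members, 0 to 1 higher and 2 to 5 lower. At an adjusted p under 0.01, 3682 genes (1676 higher, 2006 lower) and 3 members (0 higher, 3 lower) were called. Library totals gave 6110 higher and 1661 lower genes and 3 members, 2 of them lower. Limma gave 7708 higher and 1103 lower genes on log2(TPM + 1) and 7868 and 1106 on log2(TPM + 0.1), with 2 members, 1 of them lower, on both. The indicator for knock-in 4, 5 and 6 left 3 lower members, as did leaving those libraries out. Without them, library totals gave 6049 higher and 1528 lower genes and 2 members, 1 of them lower.

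The replicate block, a paired fit over numbers 1 to 6, called 2246 genes higher and no member higher (0). Its Utrn value was 0.28 (adjusted p = 0.0939) and its Sgcd value -0.58 (adjusted p = 0.0546). The correlations of same-numbered libraries ran from -0.113 to 0.0845, and no library correlated best with its own number. With 10 libraries the block used numbers 1 to 3 and called 2776 genes (1380 higher, 1396 lower) and 1 member, which was lower, and 0 higher.

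Dag1 changed sign with library totals (0.10, and 0.063 with 10 libraries), on log2(TPM + 1) and log2(TPM + 0.1) (0.30 each) and without wild type 2 (0.0071), and over all fits that left out a library it ran from -0.22 to 0.0071. Dmd (0.16) and Sgcd (0.034) did so with library totals and 10 libraries, and Dolk on both TPM scales (0.088 and 0.094). The length test called 32 genes with 10 libraries, 21 with effective length and 5 with both. The length difference changed sign for Dag1 with 10 libraries (0.0019) and effective length (0.0022, and 0.0019 with 10), and for Sspn with effective length (-0.0031, and -0.0020 with 10). The cause of these changes was not tested. Every member had at least 699 reads in each library.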
